A study of Mus musculus with 23 samples.

Results

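The genes described here are 41 markers of squamous, or stratified, epithelium and of the cornified envelope, out of 55401 Ensembl genes in the deposited count matrix. They are the rows whose identifiers map to a list of symbols put together with earlier results of these libraries in view, so their levels and the difference between the vectors are given as descriptions and not as evidence. They fall into 7 roles: 8 genes of the basal layer and its attachment, 5 of the suprabasal layers, 4 wound keratins, 9 of the cornified envelope, 8 of cell junctions, 5 regulators and 2 others. Of the 41, 40 are annotated as protein coding, and Sprr2g, a small proline-rich protein gene, as a polymorphic pseudogene.

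A stratified squamous epithelium renews itself from a basal layer that sits on a basement membrane and makes the keratin pair Krt5 and Krt14. Cells that leave this layer switch to Krt1 and Krt10, tighten their desmosomes, and finally crosslink loricrin, involucrin and small proline-rich proteins into the cornified envelope with the help of transglutaminases. Krt6a, Krt6b, Krt16 and Krt17 are low in resting interfollicular epidermis and are induced when it is wounded or hyperproliferative. The glandular epithelium of the prostate has basal cells with Krt5, Krt14 and p63, but it is not a cornifying epithelium.

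RNA came from sections of flank tumours that male C57BL/6 mice of 8 to 10 weeks carried after injection of TC2Ras cells, a TRAMP-C2 mouse prostate adenocarcinoma line transduced with a lentivirus for activated H-Ras. The mice received 10 µg of plasmid per muscle by sonoporation of the tibialis anterior, either a vector encoding IL-27 with the peptide pepL (pTSTA-IL27pepL, here IL27v, 11 libraries) or the control vector pTSTA-ctrl (EV, 12 libraries). Tumour tissue of each vector was then exposed ex vivo to cabozantinib (a tyrosine kinase inhibitor), docetaxel (a microtubule-stabilizing taxane), anti-PD-L1 antibody, IL-27, cabozantinib plus IL-27, or media alone. The 12 groups hold 2 libraries each, but for ex vivo IL-27 in IL27v tumours only replicate 2 was analysed here. Nothing in the labels says whether replicates came from separate animals, so the spread between them may be technical. The libraries were poly(A) selected and strand specific, from RNA with an integrity number of at least 8, and held 47641781 to 83088346 counts. Levels are CPM, counts scaled to a common library size after TMM normalization, at which 1 CPM stands for 36.3 to 86.5 counts. Replicate pairs correlated at 0.944 to 0.990 over the genes tested, and all pairs of libraries at 0.896 to 0.992 (Pearson, log2 scale, across genes, which are not independent). Hras was at 7.40 to 39.3 CPM in IL27v and 13.8 to 52.5 CPM in EV libraries, with no group apart from the other. Of 5 prostate luminal genes, 1 was at 0 in every library (Pbsn, named after its values were seen). The sum of the list was 16.4 to 48.1 CPM in IL27v and 12.6 to 60.7 CPM in EV libraries. In bulk RNA, fewer cells of a type and less RNA per cell cannot be told apart.

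Squamous genes were high in 3 of the 23 libraries and low or absent in the rest. The 3 were both IL27v docetaxel libraries and IL27v anti-PD-L1 1. Summed over the members other than Itga6 and Sprr1a, which every library expressed, the level was 6225 CPM in IL27v docetaxel 1, 7334 CPM in IL27v docetaxel 2 and 1075 CPM in IL27v anti-PD-L1 1. It was 33.3 to 60.6 CPM in the other 8 IL27v libraries and 11.97 to 31.5 CPM in the 12 EV libraries. On this sum every IL27v library lay above every EV library, by a narrow margin, although no single member separated the vectors so. By the mean log2 of CPM plus 0.5 over the members, IL27v media 2 was at 0.0129, within the EV range of -0.101 to 0.372. The other IL27v libraries lay above that range. The sum over all 41 members did not separate the vectors either. There IL27v media 2 was the lowest library, at 263 CPM against 361 to 2078 CPM in EV libraries. Members at 1 CPM or more numbered 40, 41 and 36 of 41 in IL27v docetaxel 1, docetaxel 2 and anti-PD-L1 1, 9 to 19 in the other IL27v libraries and 6 to 11 in EV libraries. For 30 of the 41 members the 3 highest libraries of all 23 were these 3, as they were for 425 of the 24440 genes tested (1.74%). For 38 of the 41 the 2 highest were the IL27v docetaxel pair (4.19% of genes tested), the exceptions being Itga6, Ivl and Sprr1a. In 21 members the lowest of the 3 libraries was at least 5 times the highest of the other 20, against 0.691% of genes tested. Since the members were listed with these levels known, nothing is read from these shares.

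**Figure D1:**
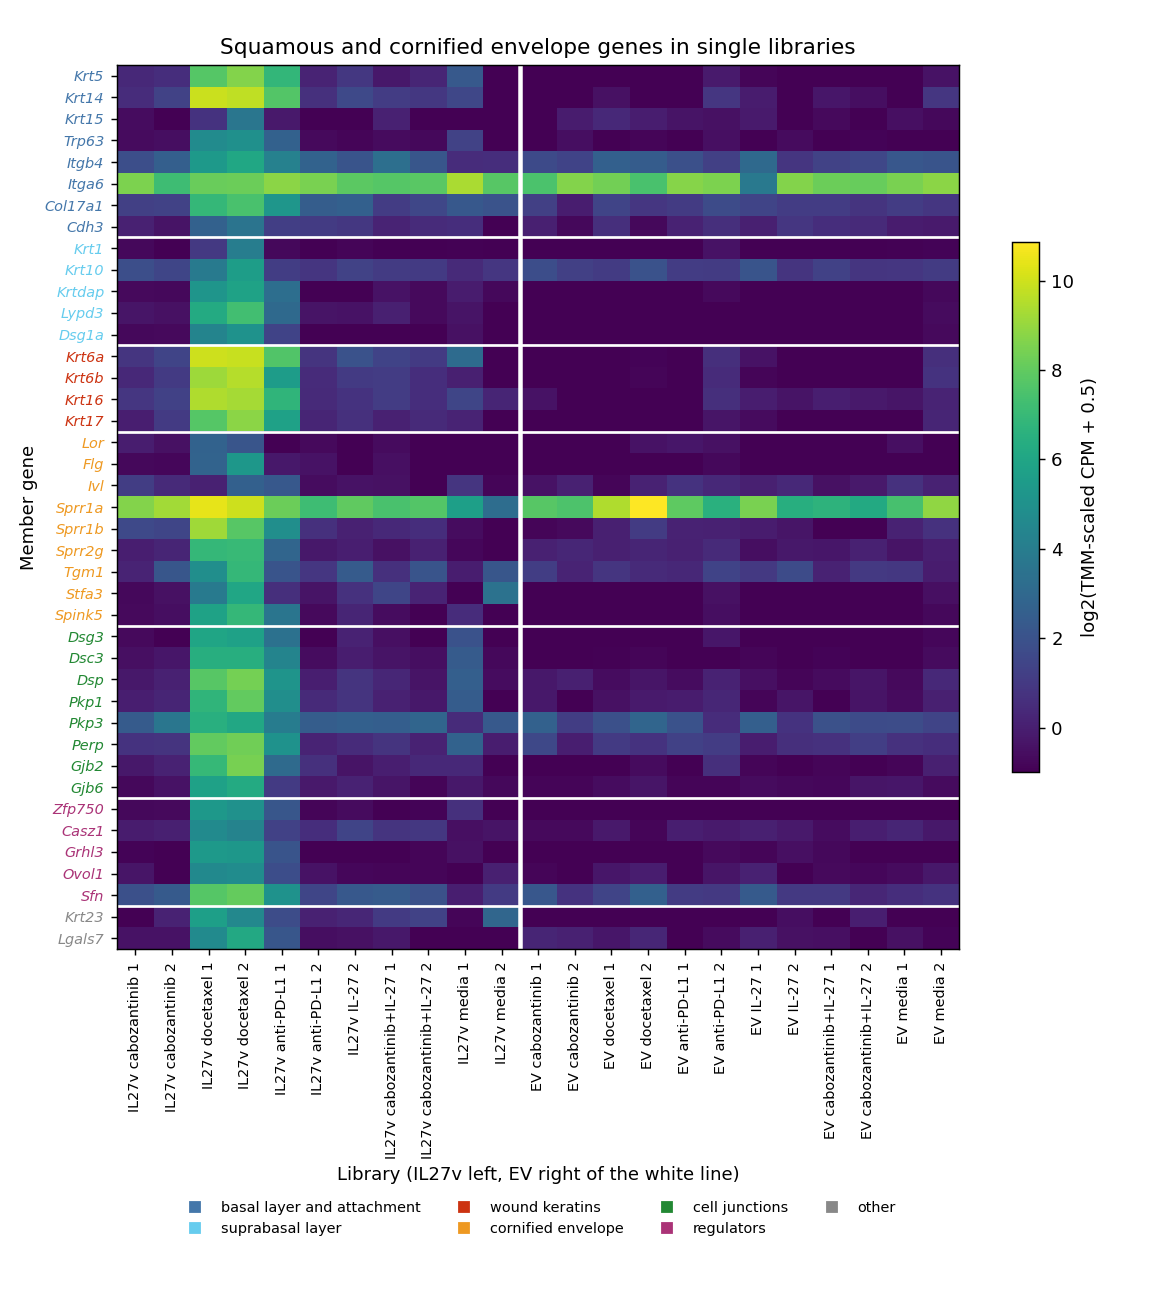
Log2 of TMM-scaled CPM plus 0.5 (colour) of the 41 members (down the page, coloured by role) in the 23 libraries (across, IL27v left of the white line and EV right of it). The IL27v docetaxel pair and IL27v anti-PD-L1 1 stand out in 30 of the 41 members, while Itga6 and Sprr1a are bright in nearly every library.

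The replicate of the third library did not share its level. IL27v anti-PD-L1 2 had a member sum of 36.7 CPM without Itga6 and Sprr1a, so that anti-PD-L1 1 was 29.3 times its own replicate. The docetaxel pair shared the pattern within the IL27v group, but the EV docetaxel libraries, at 22.4 and 30.6 CPM, lay within the range of the other EV libraries. IL27v docetaxel 1 also differed from every other library in that 27.2% of its counts came from 1 ribosomal RNA gene (CT010467.1). IL27v docetaxel 2 had no such excess, with 1.54% of its counts from its top gene Eef1a1.

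The basal keratins were high in these 3 libraries. Krt14, the type I partner of the basal keratin pair (ENSMUSG00000045545, chr11:100203162-100207548, minus strand in the GENCODE annotation of GRCm38), was at 960.2 CPM in IL27v docetaxel 1, 862 CPM in IL27v docetaxel 2 and 204 CPM in IL27v anti-PD-L1 1, at 0 to 2.54 CPM in the other 8 IL27v libraries, and in EV libraries at a lowest of 0, a median of 0.0942 and a highest of 1.35 CPM. Only the 3 libraries stood clear: the lowest of them was 80.3 times the next, IL27v IL-27 2, and the other IL27v libraries overlapped the EV range. Krt5, its type II partner on chromosome 15, was at 213, 410.4 and 116 CPM in IL27v docetaxel 1, docetaxel 2 and anti-PD-L1 1, at 0 to 4.52 CPM in the other IL27v libraries and at 0 in 9 of 12 EV libraries, with an EV maximum of 0.413 CPM. Trp63, which encodes p63, the transcription factor that maintains basal identity, was lower but had the same order of libraries, at 26.1, 30.6 and 5.87 CPM in the 3, at most 2.04 CPM in the other IL27v libraries and at most 0.199 CPM in EV libraries.

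Attachment genes were partly shared with the tumours in general. Col17a1, a transmembrane collagen of the hemidesmosome, was at 119.5, 176 and 37.5 CPM in IL27v docetaxel 1, docetaxel 2 and anti-PD-L1 1, at 1.63 to 5.82 CPM in the other IL27v libraries and at 0.474 to 2.80 CPM in EV libraries. Itgb4, the integrin β4 chain of the hemidesmosome, was at 42.9, 67.3 and 18.2 CPM in the 3, and was also found at 0.936 to 9.52 CPM in the other IL27v and 1.28 to 7.73 CPM in EV libraries, which overlapped. Its partner Itga6, the integrin α6 chain, did not follow the set at all. It had a lowest of 147, a median of 284 and a highest of 666 CPM in IL27v libraries, against 13.6, 342 and 448 CPM in EV libraries, with the highest value in IL27v media 1. Cdh3, the P-cadherin of basal cells, reached 5.93, 11.4 and 1.81 CPM in the 3 and at most 1.57 CPM elsewhere in IL27v and 1.36 CPM in EV libraries. Krt15, a keratin of basal and hair follicle stem cells, was at 12.04 CPM in IL27v docetaxel 2 and at most 1.19 CPM in any other library.

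Wound keratins were high in the same libraries. Krt6a (chr15:101689910-101694307, minus strand) was at 1009, 926 and 200.2 CPM in IL27v docetaxel 1, docetaxel 2 and anti-PD-L1 1, at 0 to 8.39 CPM in the other IL27v libraries, and at 0 in 8 of 12 EV libraries with an EV maximum of 1.03 CPM. Krt16, its type I partner (chr11:100246091-100248902, minus strand), was at 692, 620.1 and 107 CPM in the 3, at 0.657 to 2.26 CPM in the other IL27v libraries and at 0 to 0.997 CPM in EV libraries. All 4 wound keratins had their 3 highest values in the 3 libraries, each at least 23.8 times any other library. Krt6b was at 554, 756 and 46.8 CPM, and Krt17, a type I keratin induced along with Krt6, at 215, 444 and 54.1 CPM, in IL27v docetaxel 1, docetaxel 2 and anti-PD-L1 1. The split between Krt6a and Krt6b is uncertain, because 37.5% of the 75-base words of the Krt6a transcript also occur in transcripts of other genes, as do 39.6% of those of Krt6b and 28.9% of those of Krt16.

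**Figure D2:**
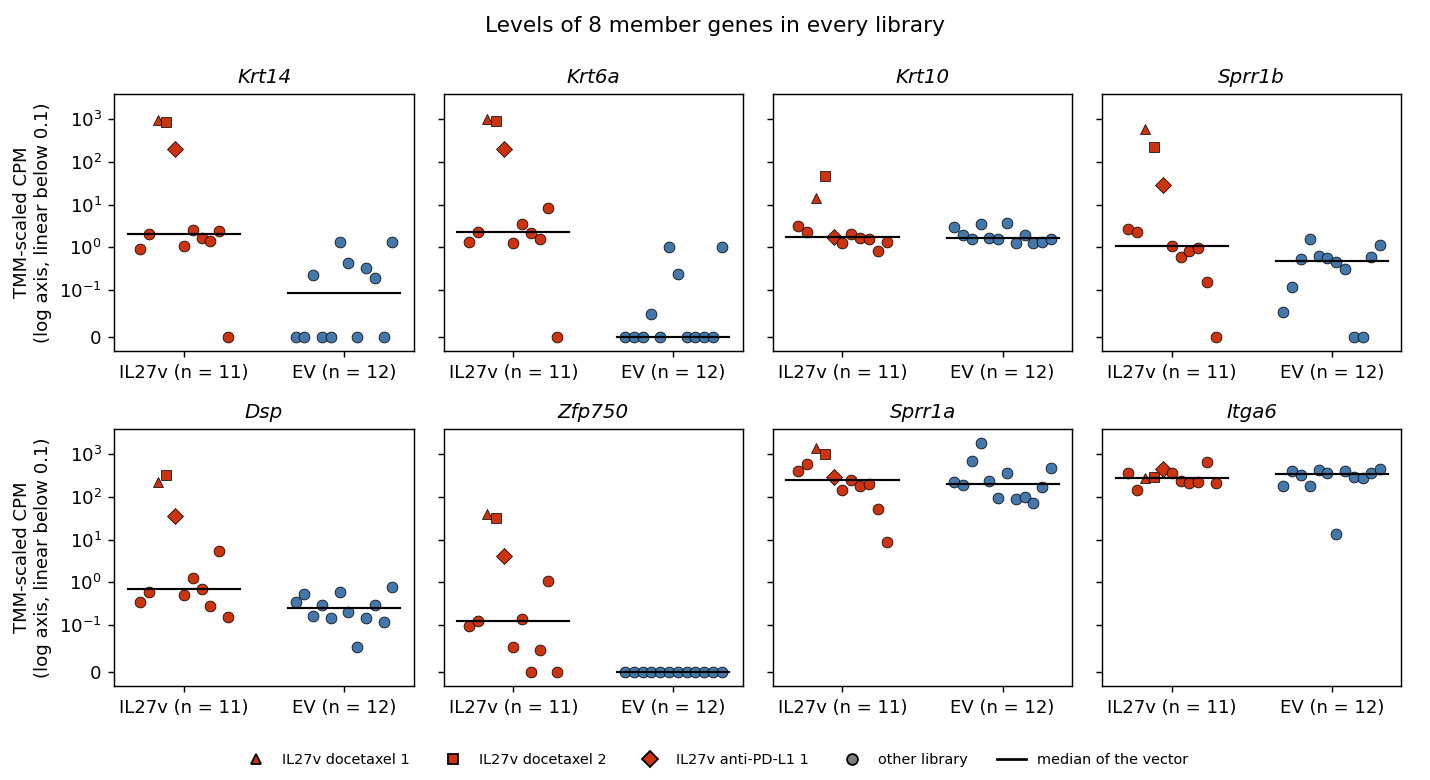
TMM-scaled CPM (log axis, linear below 0.1) of 8 members in every library, 11 IL27v libraries left and 12 EV libraries right in each panel, with a line at the median of each vector. Krt14, Krt6a, Sprr1b, Dsp and Zfp750 are far higher in the IL27v docetaxel pair and IL27v anti-PD-L1 1 than elsewhere, Krt10 is higher in the IL27v docetaxel pair alone, and Sprr1a and Itga6 overlap between the vectors.

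Per kilobase of exon, some keratin ratios were alike in the 3 libraries and others were not. Krt6a over Krt14 was 0.764 in IL27v docetaxel 1, 0.781 in docetaxel 2 and 0.714 in anti-PD-L1 1, and Krt16 over Krt6a was 1.06, 1.03 and 0.827. Krt17 over Krt14 varied more, at 0.254, 0.584 and 0.301, as did Krt5 over Krt14, at 0.178, 0.381 and 0.455, and Krt6b over Krt6a, at 0.594, 0.883 and 0.253. Of the summed level per kilobase of the members other than Itga6 and Sprr1a, the 4 wound keratins made up 35.6% in IL27v docetaxel 1, 37.1% in docetaxel 2 and 39.1% in anti-PD-L1 1. The share of the basal genes was 19.3%, 19.3% and 33.8%, and that of the cornified envelope genes 26.9%, 18.3% and 10.2%. The 3 libraries thus had a like share of wound keratins, and in anti-PD-L1 1 the basal share was larger and the cornified envelope share smaller than in the docetaxel pair. Its summed basal level was lower, at 179 CPM per kilobase against 674 and 729 CPM per kilobase in docetaxel 1 and docetaxel 2.

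The keratins of the suprabasal layers were scarce beside the basal ones. Krt1 was at 1.43 CPM in IL27v docetaxel 1, 15.6 CPM in docetaxel 2 and 0.0904 CPM in anti-PD-L1 1, at most 0.0981 CPM in the other IL27v libraries and at 0 in 9 of 12 EV libraries. Krt10, its partner, was at 14.3, 47.8 and 1.72 CPM in the 3, with the last within the range of the other IL27v libraries (0.817 to 3.07 CPM) and of EV libraries (1.24 to 3.70 CPM). Per kilobase, Krt1 was 0.00335, 0.0189 and 0.000388 of Krt5, and Krt10 was 0.0124, 0.0461 and 0.00700 of Krt14, in IL27v docetaxel 1, docetaxel 2 and anti-PD-L1 1. Other suprabasal genes were higher: Lypd3, a GPI-anchored surface protein of suprabasal keratinocytes, was at 76.4, 154 and 7.77 CPM, and Krtdap, a secreted protein of differentiating keratinocytes, at 36.0, 56.5 and 9.38 CPM. In the other IL27v libraries Lypd3 was at most 0.516 and Krtdap at most 0.446 CPM, and Lypd3 was at 0 in 11 and Krtdap in 10 of 12 EV libraries. Dsg1a, a desmoglein of the upper layers, was at 20.1, 33.0 and 2.12 CPM in the 3 and at most 0.223 CPM in any other library. It shares 29.2% of its 75-base words with other genes, mostly Dsg1b.

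Cornified envelope genes split into those that followed the keratins and those that did not. Promoters of 3 envelope genes that differ in pattern are shown from RefSeq (GRCm38.p6), 250 bases before to 50 after the start and 5′ to 3′ on the gene's strand. A window listed for Krt14 is printed after them. It lies inside the GENCODE span of Krt14 (chr11:100203162-100207548, minus strand) and not at the end where that span starts. Nothing on the main Krt14 promoter is read from it. Capitals mark TGANTCA, letters that take in the motif AP-1 factors are known to bind, and TATAAA, the letters of a TATA box.
Sprr1a (chr3:92485832-92486131, minus strand): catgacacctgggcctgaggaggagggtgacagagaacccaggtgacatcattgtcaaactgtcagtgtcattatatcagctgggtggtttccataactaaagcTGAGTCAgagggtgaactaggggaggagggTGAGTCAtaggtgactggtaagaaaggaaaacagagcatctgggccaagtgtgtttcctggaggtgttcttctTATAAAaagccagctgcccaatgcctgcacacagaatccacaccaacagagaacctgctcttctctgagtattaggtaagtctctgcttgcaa
Sprr1b (chr3:92438730-92439029, minus strand): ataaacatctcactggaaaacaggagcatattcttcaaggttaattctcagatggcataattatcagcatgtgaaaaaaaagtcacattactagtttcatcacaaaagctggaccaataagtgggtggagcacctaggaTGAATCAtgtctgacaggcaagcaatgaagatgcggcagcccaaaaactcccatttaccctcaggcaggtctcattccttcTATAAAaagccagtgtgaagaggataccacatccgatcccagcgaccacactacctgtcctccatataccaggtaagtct
Lor (chr3:92083093-92083392, minus strand): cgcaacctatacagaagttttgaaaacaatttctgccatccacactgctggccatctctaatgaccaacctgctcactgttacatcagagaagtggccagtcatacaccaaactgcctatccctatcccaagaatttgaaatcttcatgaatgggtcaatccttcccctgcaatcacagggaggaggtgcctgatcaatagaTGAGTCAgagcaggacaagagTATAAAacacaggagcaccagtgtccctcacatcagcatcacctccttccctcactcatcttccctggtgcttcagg
Krt14 (chr11:100205981-100206280, minus strand): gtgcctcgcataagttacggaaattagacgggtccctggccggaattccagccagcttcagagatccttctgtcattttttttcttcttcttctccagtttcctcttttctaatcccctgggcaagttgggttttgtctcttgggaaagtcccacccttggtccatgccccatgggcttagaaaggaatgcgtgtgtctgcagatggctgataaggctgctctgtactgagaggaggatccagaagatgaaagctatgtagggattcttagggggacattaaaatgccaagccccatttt
Searched on both strands, TGANTCA occurred in 7 of the 21 members with a promoter in the table (Flg, Ivl, Krtdap, Lor, Sprr1a, Sprr1b and Stfa3) and in 7.93% of 27025 promoters, and TATAAA, which cannot overlap it, in 8 of 21 (Col17a1, Flg, Ivl, Krt10, Krtdap, Lor, Sprr1a and Sprr1b) and in 14.2% of promoters. A match describes the letters and is not a binding site, and the 3 envelope genes shown share both motifs although their levels differed.

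Sprr1b, a small proline-rich envelope precursor (chr3:92436809-92438789, minus strand), was at 582 CPM in IL27v docetaxel 1, 222 CPM in docetaxel 2 and 28.9 CPM in anti-PD-L1 1, at 0 to 2.62 CPM in the other IL27v libraries, and in EV libraries at a lowest of 0, a median of 0.482 and a highest of 1.56 CPM. Its neighbour Sprr1a (chr3:92483952-92485895, minus strand), which carries 2 TGANTCA where Sprr1b carries 1, was expressed everywhere. It was at 1396 and 1015 CPM in IL27v docetaxel and 699 and 1869.9 CPM in EV docetaxel libraries, against 51.5 and 8.98 CPM in IL27v media and 168 and 476 CPM in EV media libraries. The highest Sprr1a level of the series was thus in EV docetaxel 2, where Sprr1b was 1.56 CPM. Sprr2g was at 117, 128 and 6.91 CPM in IL27v docetaxel 1, docetaxel 2 and anti-PD-L1 1 and at most 0.840 CPM in the 20 others.

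Other envelope genes differed among the 3 libraries. Lor, which encodes loricrin, the main envelope protein of epidermis (chr3:92080271-92083142, minus strand), was at 6.04 and 3.92 CPM in the IL27v docetaxel pair, 0 in IL27v anti-PD-L1 1, at most 0.462 CPM in the other IL27v libraries and at 0 in 8 of 12 EV libraries. Flg, which encodes profilaggrin, was at 6.34, 38.6 and 0.349 CPM in IL27v docetaxel 1, docetaxel 2 and anti-PD-L1 1 and at most 0.256 CPM in any other library. Ivl, the involucrin gene, was at 0.579 CPM in IL27v docetaxel 1, within the EV range of 0.0580 to 1.14 CPM, and at 5.79 and 4.29 CPM in docetaxel 2 and anti-PD-L1 1. Tgm1, the transglutaminase that crosslinks the envelope, was at 28.3, 120.4 and 3.78 CPM in the 3, at 0.475 to 4.73 CPM in the other IL27v libraries and at 0.451 to 2.77 CPM in EV libraries. Spink5, an inhibitor of the proteases that shed corneocytes, was at 57.0, 120.2 and 11.9 CPM in the 3 and at most 0.906 CPM elsewhere. Stfa3, a cysteine protease inhibitor, was at 14.0, 65.6 and 0.994 CPM, but IL27v media 2 had 10.5 CPM of it.

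Junction genes followed the keratins in all 8 cases. Dsp, which encodes desmoplakin, the link between desmosome and keratin (chr13:38151294-38198577, plus strand), was at 224, 334 and 35.2 CPM in IL27v docetaxel 1, docetaxel 2 and anti-PD-L1 1, at 0.149 to 5.44 CPM in the other IL27v libraries and at 0.0523 to 0.786 CPM in EV libraries. The 3 libraries stood clear of the 20 others, whose vectors overlapped. The desmosomal cadherins of the lower layers gave the same picture, with Dsg3 at 62.3, 54.7 and 10.2 CPM and Dsc3 at 85.9, 85.2 and 20.0 CPM in the 3, at most 3.43 and 4.75 CPM in the other IL27v libraries and at most 0.327 and 0.139 CPM in EV libraries. Plakophilin 1 (Pkp1) was at 107, 257 and 28.9 CPM, and Perp, a desmosomal protein under p53 and p63, at 261, 313 and 32.9 CPM. Gjb2 and Gjb6, which encode connexins 26 and 30 of gap junctions, were at 123 and 55.5 CPM in IL27v docetaxel 1, 340.1 and 76.1 CPM in docetaxel 2, and 8.02 and 1.54 CPM in anti-PD-L1 1, against at most 1.03 and 0.317 CPM in EV libraries. Pkp3, a plakophilin of simple and stratified epithelia alike, was at 88.4, 69.0 and 15.2 CPM in the 3 but also at up to 12.02 CPM in the other IL27v and 6.86 CPM in EV libraries.

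The regulators included the 1 member at 0 in every EV library. Zfp750, a zinc finger factor that drives terminal epidermal differentiation (chr11:121510978-121519333, minus strand), was at 39.8, 31.3 and 4.05 CPM in IL27v docetaxel 1, docetaxel 2 and anti-PD-L1 1, at 0 to 1.07 CPM in the other IL27v libraries and at 0 in all 12 EV libraries. A count of 0 allows up to 3 counts in a library, which is 0.0347 to 0.0511 CPM in EV libraries (counting error only). Tbcd lies over Zfp750 on the other strand at a mean of 50.7 CPM over the 23 libraries, and whether the counting used strand is not given in the sources used here. Grhl3, a grainyhead factor of barrier formation, was at 41.6, 38.7 and 3.72 CPM in the 3 and at most 0.223 CPM in any other library. Ovol1, a zinc finger factor that takes cells out of the basal state, was at 24.3, 27.2 and 3.03 CPM against at most 0.579 CPM elsewhere. Casz1, a zinc finger factor, was at 25.05, 19.1 and 1.94 CPM, the last below the 2.19 CPM of IL27v IL-27 2. Sfn, which encodes 14-3-3σ, was at 212, 266 and 32.8 CPM in the 3, at 0.505 to 4.80 CPM in the other IL27v and at 0.710 to 5.72 CPM in EV libraries. Of the 2 other members, Lgals7 (galectin-7 of stratified epithelia) was at 24.8, 71.9 and 4.00 CPM and at most 0.729 CPM elsewhere, while the keratin gene Krt23 was at 51.4, 22.6 and 2.88 CPM and at 7.08 CPM in IL27v media 2.

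The IL27v docetaxel libraries differed most in the keratinized layers. The median ratio of docetaxel 2 over docetaxel 1 was 1.37 over the 41 members and above 1 in 28 of them. It was 10.9 for Krt1, 10.2 for Krt15, 9.99 for Ivl, 6.08 for Flg, 4.67 for Stfa3, 4.25 for Tgm1 and 3.35 for Krt10, all higher in docetaxel 2. It was 0.381 for Sprr1b, 0.439 for Krt23 and 0.649 for Lor, which were higher in docetaxel 1. By role the median was 2.11 for envelope and 2.02 for suprabasal genes, 1.52 for basal genes, 1.29 for junctions, 1.14 for wound keratins and 0.929 for regulators. These are 2 libraries of 1 group, and no test separates them.

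**Figure D3:**
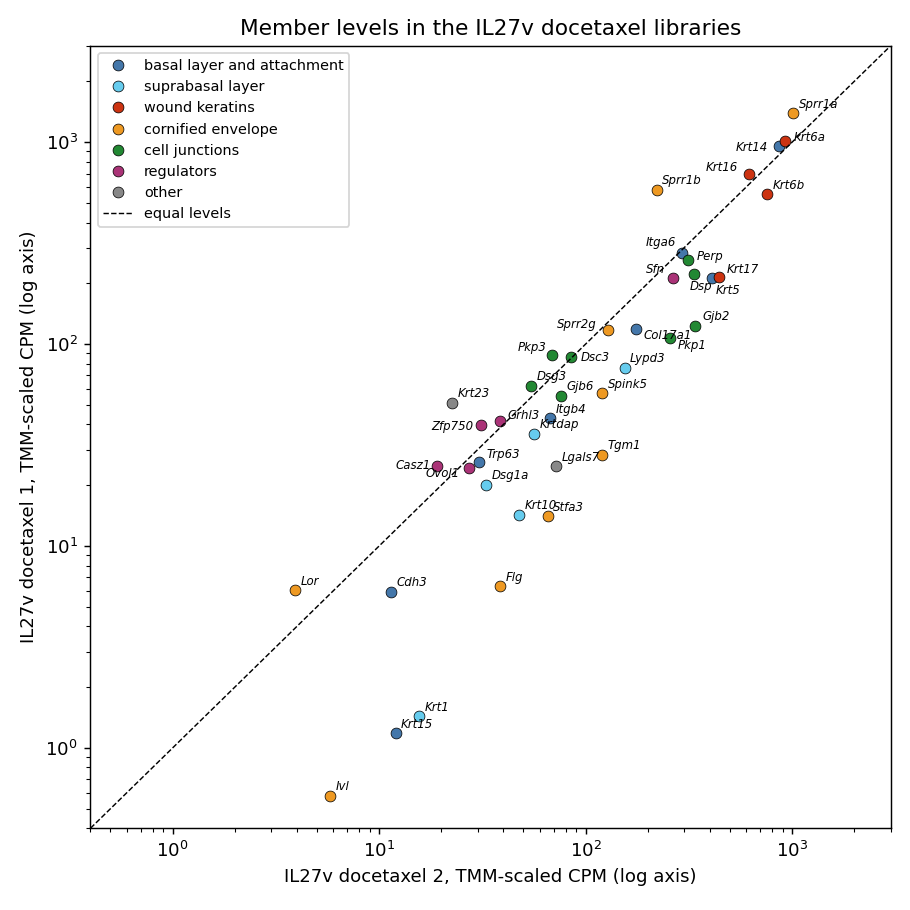
Members in IL27v docetaxel 1 (vertical axis) against IL27v docetaxel 2 (horizontal axis), both in TMM-scaled CPM on log axes, coloured by role, with a dashed line at equal levels. Krt1, Krt15, Ivl, Flg and Stfa3 lie well below the line, and Sprr1b, Krt23 and Lor above it.

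Set against IL27v docetaxel 2, the levels of 2 other IL27v libraries differed by role. IL27v anti-PD-L1 1 had a median of 22.5% of the docetaxel 2 level over the 8 basal genes, 14.7% over wound keratins, 11.1% over regulators, 10.9% over junctions, 5.40% over envelope and 5.03% over suprabasal genes. Within the envelope genes this ranged from 0 (Lor) to 74.0% (Ivl), and within the basal genes from 3.22% (Krt15) to 151% (Itga6). IL27v media 1 had a median of 1.91% of docetaxel 2 over basal genes, 1.80% over junctions, 0.675% over suprabasal genes, 0.577% over regulators, 0.254% over wound keratins and 0.0670% over envelope genes. Basal genes were first in anti-PD-L1 1. In media 1 they were first only with Itga6 included, which was at 227% of docetaxel 2. Without it the middle basal gene was Itgb4, at 1.39%, below the junction median. The wound keratins, second in anti-PD-L1 1, were below the suprabasal genes in media 1. There Krt6a was at 8.39 CPM, Perp at 6.23, Dsp at 5.44, Pkp1 at 5.05, Dsc3 at 4.75, Krt5 at 4.52, Dsg3 at 3.43 and Trp63 at 2.04 CPM, while Flg, Lor, Stfa3, Krt15, Ovol1 and Lgals7 were at 0. Outside the 3 libraries, IL27v media 1 held the highest value of 15 of the 41 members (36.6%), as it did for 12.8% of genes tested. Its replicate was unlike it: IL27v media 2 had Krt5, Krt14, Krt6a, Krt6b and Krt17 at 0 and 22 of 41 members at 0, with Stfa3 at 10.5, Krt23 at 7.08 and Tgm1 at 3.96 CPM.

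**Figure D4:**
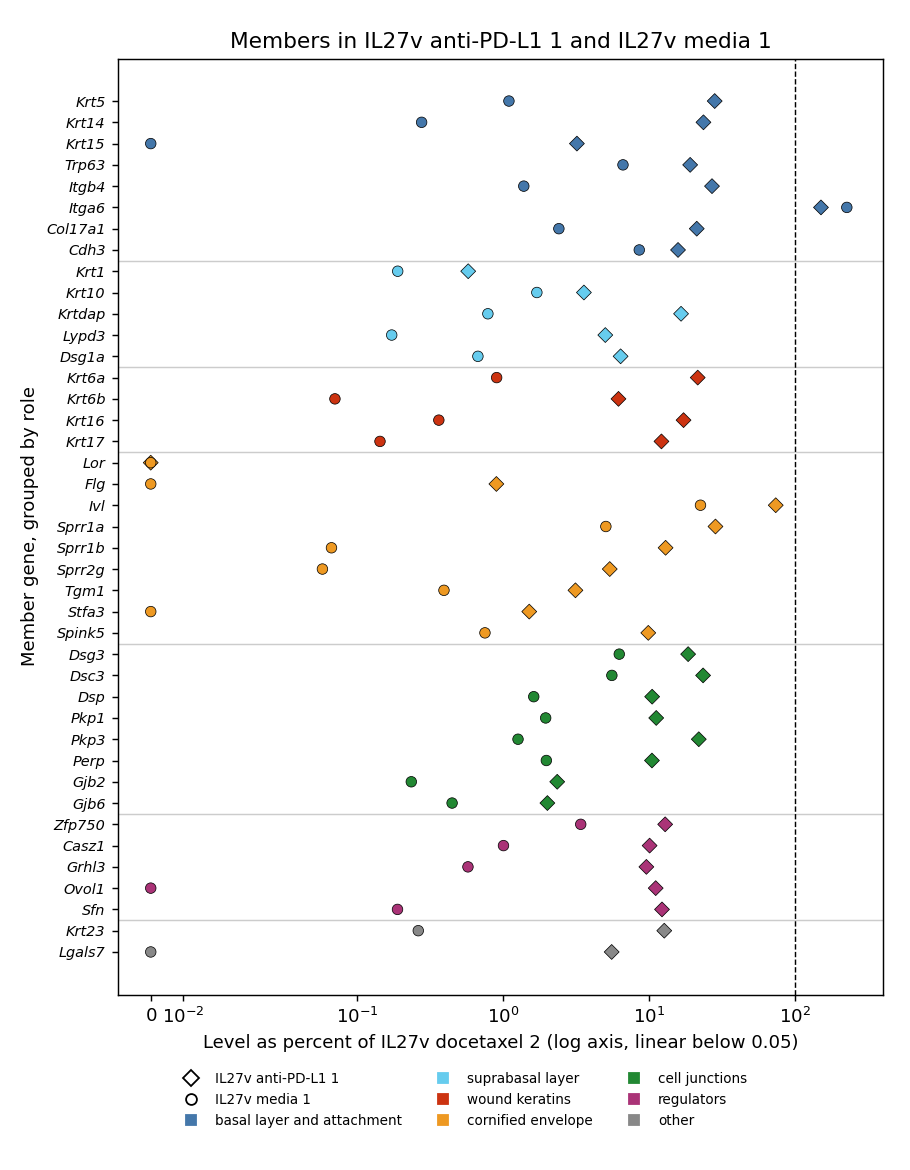
Level of each member as percent of its level in IL27v docetaxel 2 (horizontal log axis, linear below 0.05), for IL27v anti-PD-L1 1 (diamonds) and IL27v media 1 (circles), with members down the page grouped and coloured by role and a dashed line at 100. Basal and junction genes have higher median percentages than suprabasal and envelope genes in both libraries, but single genes overlap. In anti-PD-L1 1, for example, Ivl, Sprr1a, Krtdap and Sprr1b are above the junction median, and Krt15, Gjb2 and Gjb6 are below the suprabasal median.

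Between the vectors, edgeR's quasi-likelihood test over all 24440 genes called 25 of the 41 members higher and 0 lower in IL27v at a Benjamini-Hochberg adjusted p under 0.05, where 2.28% of all genes were called higher and 0.671% lower. Nothing is read from this count, since the members were listed with this contrast in view. The median log2 fold change was 3.81 over the members and 0.01 over all genes tested. All 8 junction genes and all 4 wound keratins were among the 25, with 4 of 8 basal, 4 of 9 envelope, 3 of 5 regulator, 1 of 5 suprabasal and 1 of 2 other genes. The contrast averages 6 conditions on the log2 scale: Krt14 differed by 6.15 (SE 1.09) and Dsp by 3.83 (SE 0.63), against -0.09 (SE 0.32) for Sprr1a and -0.0022 (SE 0.37) for Itga6. Without the 3 highest libraries, a choice made after seeing the data that leaves 5 conditions in the vector difference, edgeR called 0 members, although 148 of 23574 genes were still called. In that fit 32 of 41 members had a fold change above 0 (42.7% of all genes), 18 had an unadjusted p under 0.05 (9.32% of all genes), and the median was 1.37, against -0.07 over all genes. Without IL27v media 1 alone, 11 members were called, among 917 of 24322 genes.

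Library composition also differed between the vectors. The sum of 13 skeletal muscle genes was 849 and 881 CPM in IL27v docetaxel 2 and anti-PD-L1 1 and 25.4 CPM in docetaxel 1, 519 to 881 CPM in the other IL27v libraries, and 1.27 to 507 CPM in EV libraries, of which EV anti-PD-L1 2 and both EV cabozantinib plus IL-27 libraries were at 432 to 507 CPM. The 3 libraries with squamous genes thus lay at both ends of the muscle range of the IL27v libraries. Muscle RNA and vector cannot be told apart over most of the design. With a term for 3 sets of libraries, formed from this sum and from Ngp, a neutrophil granule gene, an additive fit that leaves out IL27v docetaxel 1 called 0 members in edgeR and 0 of 24046 genes, with 4 members and 677 genes at an unadjusted p under 0.05. Within the set of 8 IL27v libraries with muscle RNA and no Ngp, the member sum without Itga6 and Sprr1a still ranged from 33.3 to 7334 CPM. Within the set with Ngp, the only one that held both vectors, it was 36.0 and 60.6 CPM in the IL27v media pair and 15.6 to 25.7 CPM in 3 EV libraries of other conditions.

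For docetaxel against media, averaged over both vectors, edgeR called 11 members higher and 0 lower, where 1.76% of all genes were called higher and 0.0286% lower. These were Casz1, Col17a1, Gjb6, Itgb4, Krt10, Lgals7, Pkp3, Sfn, Sprr1a, Sprr1b and Sprr2g. Nothing is read from the docetaxel counts of members, since the members were listed with the levels of the IL27v docetaxel libraries known. The median log2 fold change of the members was 2.82, against 0.00 over all genes. The keratins of the basal and wound groups were not among the 11, with Krt14 at 3.50 (SE 1.69) and Krt6a at 1.74 (SE 2.66) on the log2 scale. In IL27v, both docetaxel libraries lay above both media libraries for 39 of 41 members, as for 5623 of the 24440 genes tested. In EV they did so for 9 of 41 (22.0%), near the share of the genes tested (4231, or 17.3%). The 9 were Itgb4, Krt15, Lgals7, Perp, Pkp3, Sfn, Sprr1a, Sprr2g and Trp63. Trp63 was among them on 1 and 4 counts in EV docetaxel against 0 in both EV media libraries, too few to resolve. Sprr1a, whose values are given above, differed by 3.66 (SE 0.59) on the log2 scale. Sfn was at 212 and 266 CPM in IL27v docetaxel against 0.505 and 1.55 CPM in IL27v media libraries, and at 2.19 and 5.72 CPM in EV docetaxel against 0.963 and 1.17 CPM in EV media libraries. Krt10 was at 14.3 and 47.8 against 0.817 and 1.33 CPM in IL27v, and at 1.56 and 3.41 against 1.35 and 1.57 CPM in EV libraries of the same exposures, where its ranges overlapped. Without the 3 highest libraries, which leaves the EV pairs alone, edgeR called 0 members and 0 genes, with 3 members and 522 of 23574 genes (2.21%) at an unadjusted p under 0.05 and a member median of -0.04. Leaving out EV media 1 alone also ended all 11 calls (15 members and 3368 of 24336 genes at an unadjusted p under 0.05), with 0 genes called in all. Members called numbered 3 among 44 genes without EV media 2, 6 among 61 genes without IL27v media 1, and 7 among 52 genes without IL27v docetaxel 1.

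The difference of the docetaxel effect between the vectors, as an interaction term in the same edgeR fit, was called for 4 members among 5 genes in all (0.0205% of genes tested). Nothing is read from this count either, since the levels behind it were known when the members were listed. The interaction was 12.08 (SE 1.77) for Sprr1b, 10.97 (SE 1.56) for Sprr2g, 8.15 (SE 1.26) for Gjb6 and 7.72 (SE 1.08) for Casz1 on the log2 scale, with the larger docetaxel difference in IL27v. It was 3.32 (SE 1.08) for Sprr1a, with an adjusted p of 0.53 in edgeR. The same term for cabozantinib plus IL-27 was called for 1 member, Sprr1b, among 358 genes (1.46% of genes tested). Sprr1b was at 0.800 and 0.954 CPM in IL27v and 0 in both EV libraries of that exposure, against 0.149 and 0 CPM in IL27v media and 0.594 and 1.10 CPM in EV media libraries, so that its fitted size depends on the prior count.

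The other exposures gave 0 called members in edgeR, with 0% of all genes called for cabozantinib, anti-PD-L1 and IL-27 and 0.00409% for cabozantinib plus IL-27. Members at an unadjusted p under 0.05 numbered 7 of 41 for cabozantinib (2570 of the 24440 genes tested), 12 for anti-PD-L1 (1429 genes), 4 for IL-27 (2907 genes) and 2 for cabozantinib plus IL-27 (1092 genes), so the counts for IL-27 and for cabozantinib plus IL-27 were near the background. DESeq2 called 4, 3, 2 and 2 members, among 296, 105, 614 and 58 genes. For anti-PD-L1 the 2 IL27v libraries disagreed, with Krt14 at 204 and 1.08 CPM against 2.39 and 0 CPM in IL27v media libraries, while EV anti-PD-L1 libraries had 0 and 1.35 CPM against 0 and 1.35 CPM in EV media libraries. All exposures share the media libraries.

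Several genes outside the list had nearly the same pattern. The 10 non-members whose log2 levels tracked the mean log2 level of the members most closely over the 23 libraries were Dsc1 (Pearson r 0.993), Klk13, Slc6a14, 2310046K23Rik, Pof1b, Calm4, BC100530, Ehf, Gm11597 and Abca12 (0.987). Over the 20 libraries without the 3 high ones the same correlations were 0.265 for Gm11597, 0.915 for BC100530 and 0.603 to 0.809 for the other 8, so the values over 23 rest in part on 3 points. Transcripts of Gm11597 also hold 22.5% of the 75-base words of the member Krt16, so their levels may not be separate. Calm4, a calcium-binding protein of keratinocytes, was at 216, 242 and 34.1 CPM in IL27v docetaxel 1, docetaxel 2 and anti-PD-L1 1, at most 0.800 CPM in the other IL27v and 0.313 CPM in EV libraries. Abca12, the lipid transporter of lamellar granules, was at 71.6, 53.4 and 4.05 CPM in the 3 and at most 0.713 CPM in any other library.

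A wider list of 44 other epidermal differentiation genes, also chosen with earlier results known, gave 31 genes with their 3 highest values in the 3 libraries (1.74% of genes tested). Of the 43 tested, edgeR called 11 higher between the vectors (2.28% of all genes) and 10 higher for docetaxel (1.76% of all genes). The medians were 2.90 and 4.21 on the log2 scale, against 0.01 and 0.00 over all genes. As for the members, nothing is read from these counts. Dmkn, which encodes dermokine, was at 287, 471 and 42.1 CPM in IL27v docetaxel 1, docetaxel 2 and anti-PD-L1 1, at 0.280 to 2.72 CPM in the other IL27v libraries and at most 1.08 CPM in EV libraries. Like Sprr1a, Sprr2h was expressed in every library. It was at 743, 407 and 226 CPM in the 3, 26.99 to 429.7 CPM in the other IL27v libraries and 90.4 to 547 CPM in EV libraries. The highest Sprr2h level was in IL27v docetaxel 1, whereas that of Sprr1a was in EV docetaxel 2. Of 16 epithelial transcription factors and splicing regulators, 10 had their 3 highest values in the 3 libraries (1.74% of genes tested). This list too was chosen with earlier results known, and nothing is read from its count. Ehf, an epithelial ETS factor, was at 91.8, 55.8 and 6.69 CPM in IL27v docetaxel 1, docetaxel 2 and anti-PD-L1 1, while Klf5 was at 126, 117 and 100.4 CPM, within 45.4 to 127 CPM in EV libraries.

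Markers of the skin's appendages and of other epithelia were given for the same libraries. Of 16 hair follicle keratin and sheath genes in the table, 12 were at 0 in all 3 libraries, and the list's sum was 24.96, 15.9 and 9.54 CPM in IL27v docetaxel 1, docetaxel 2 and anti-PD-L1 1, 0.747 to 4.69 CPM in the other IL27v and 0.963 to 6.46 CPM in EV libraries. Its main genes in the 3 were Krt75, a companion layer keratin, at 10.9, 9.69 and 4.78 CPM and 0 in all EV libraries, and Tchh (trichohyalin) at 14.0, 6.21 and 4.48 CPM, with up to 6.35 CPM in EV libraries. Of 6 sebaceous genes, Krt79 was at 7.28, 60.9 and 7.22 CPM in the 3 and at most 0.560 CPM elsewhere, while the sebaceous lipid enzyme gene Awat2 was at 1.35, 1.39 and 0.568 CPM, against 0.667 to 2.10 CPM in EV libraries. Of 7 melanocyte genes, 2 were at 0 in every library and 3 in the 3 highest, and the sum was at most 2.81 CPM. The 9 simple epithelium genes summed to 197, 183 and 50.1 CPM in the 3, 3.97 to 35.7 CPM in the other IL27v and 9.74 to 144 CPM in EV libraries, with Cdh1, which encodes E-cadherin, at 71.9, 92.2 and 13.9 CPM against at most 1.74 CPM in EV libraries. Krt8 was highest in an EV library, at 122 CPM. Adipocyte genes summed to 156, 80.6 and 21.0 CPM in the 3, within or above the 14.8 to 75.6 CPM of EV libraries. The part of other tissue in the squamous levels was not tested.

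**Figure D5:**
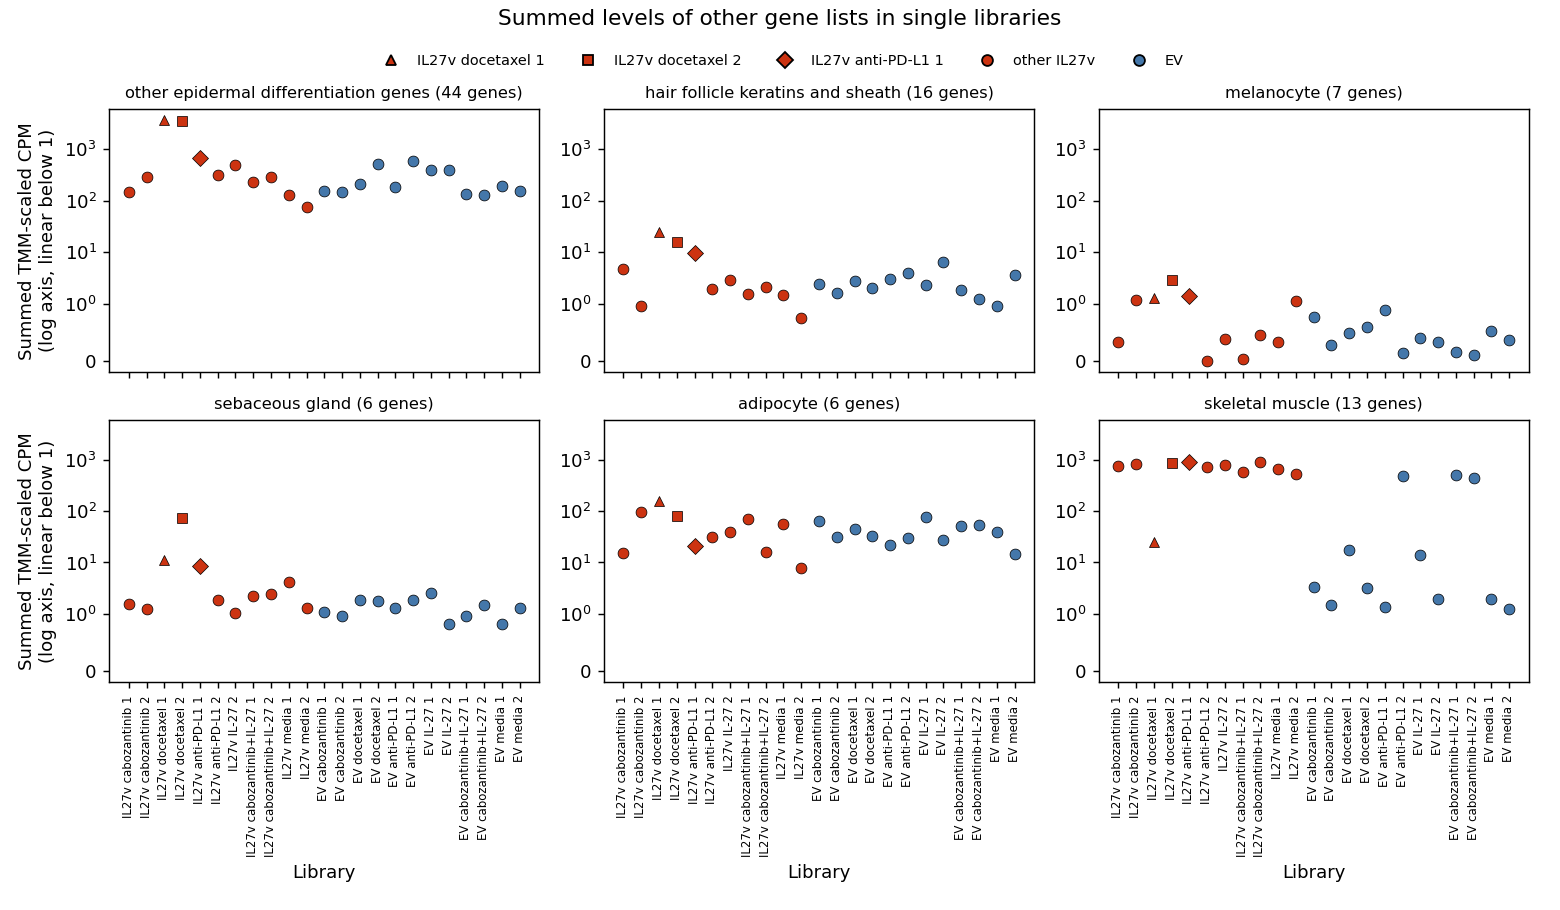
Summed TMM-scaled CPM (log axis, linear below 1) of 6 other gene lists in each of the 23 libraries, IL27v left and EV right, with the 3 libraries of highest member level as triangle, square and diamond. Other epidermal genes, and at far lower levels hair follicle and sebaceous genes, are highest in the 3, melanocyte genes stay at or under 2.81 CPM, and muscle genes are low in IL27v docetaxel 1 and high in the other IL27v libraries.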

How the data were processed

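Estimated counts per Ensembl gene, not normalized, were deposited by the authors in 1 matrix of 23 libraries. The submitters' processing notes name the tools cutadapt, HISAT2, StringTie and DESeq2 and the build GRCm38, without versions or settings. The values are whole numbers, but 143 genes have the same nonzero value in every library, so they are not plain fragment counts, and the tests treat them as counts (rounding changed nothing). Totals were 47641781 to 83088346 per library. Whether counting used strand is not stated, so genes with antisense partners are uncertain. Symbols matched 55141 of 55401 identifiers.

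The members and all gene lists were chosen with earlier results of these data known. A cell-means model of 12 groups over all 23 libraries was fitted with edgeR 4.0.16 (TMM, filterByExpr, quasi-likelihood test, R 4.3.3), with Benjamini-Hochberg adjustment over 24440 genes and 11 residual degrees of freedom, and was tested on simulated data. All 41 members passed the filter, many through the 3 libraries in which they are high, and 28 had 1 CPM in 4 libraries. Fitted values were kept to 8 significant digits. Standard errors are the fold change divided by the root of the F statistic. The vector difference averages 6 conditions, and an exposure difference averages both vectors. All members may be named, with up to 4 genes of each of 9 other lists by mean level and the 10 closest genes. Columns were matched to samples by their titles. Alternatives were RLE scaling, other filters, DESeq2 1.42.0, a replicate block, additive models, library sets and leaving out libraries. Genes named outside these rules (Pbsn, CT010467.1, Eef1a1, Tbcd and Dsg1b) were chosen after their values were seen. Some genes of the other lists are not reported here.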

Additional observations from a re-analysis of the deposited data

Results flagged for a closer look

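The interaction of docetaxel with the vector in the edgeR fit was called for 4 members, among 5 of all 24440 genes (0.0205%). The adjusted p in edgeR was 0.026 for Casz1, 0.026 for Sprr2g, 0.036 for Sprr1b and 0.039 for Gjb6. Gjb6 was at 55.5 and 76.1 CPM in IL27v docetaxel against 0.342 and 0.105 CPM in IL27v media libraries, and at 0.159 and 0.298 CPM in EV docetaxel against 0.317 and 0.127 CPM in EV media libraries. Casz1 was at 25.05 and 19.1 CPM in IL27v docetaxel against 0.193 and 0.284 CPM in IL27v media libraries, and at 0.377 and 0.0663 CPM in EV docetaxel against 0.673 and 0.358 CPM in EV media libraries. These levels were known when the genes were listed, so nothing is read from the 4 calls.

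Sprr1b was also called for the interaction of cabozantinib plus IL-27 with the vector (edgeR adjusted p of 0.022), as were 1.46% of all genes. It was at 0.800 and 0.954 CPM in IL27v cabozantinib plus IL-27 against 0.149 and 0 CPM in IL27v media libraries, and at 0 in both EV cabozantinib plus IL-27 libraries against 0.594 and 1.10 CPM in EV media libraries. With groups at 0, the fitted size depends on the prior count and is not given.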

How the results depend on the processing

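The count of 25 members called between the vectors became 15 in an additive model (666 genes called in all), 0 in an additive model with library sets, which leaves out IL27v docetaxel 1 (4 members and 677 of 24046 genes at an unadjusted p under 0.05 in edgeR), and 0 without the 3 highest libraries (chosen after seeing the data, 18 members and 2198 of 23574 genes at an unadjusted p under 0.05). Leaving out each library in turn gave 11 (without IL27v media 1) to 27. The count of 11 for docetaxel became 24 with no filter on low counts (1843 of 33123 genes) and 0 in the additive model, with the sets and without the 3 highest (27, 4 and 3 members and 4197, 797 and 522 genes at an unadjusted p under 0.05), and 0 (without EV media 1) to 12 when leaving out single libraries. The 0 calls of the other exposures became, for cabozantinib, anti-PD-L1, IL-27 and cabozantinib plus IL-27, 17, 24, 13 and 15 with no filter, among 948, 506, 1093 and 353 of 33123 genes, and 4, 3, 2 and 2 with DESeq2, among 296, 105, 614 and 58 of 24440. With no filter 4 of the 17, 24 of the 24, 3 of the 13 and 3 of the 15 were higher, so all calls for anti-PD-L1 were higher and most for the other 3 exposures lower. Single libraries moved them to 0 to 1 for anti-PD-L1 and 0 to 2 for IL-27, and left 0 for both cabozantinib exposures. The mean log2 level of the members in IL27v docetaxel 2 lay 6.48 above the median EV library, or 7.96 and 5.76 with pseudocounts of 0.1 and 1. With library sets the log2 difference between vectors was -1.43 for Krt5, -6.04 for Krt14, -0.29 for Col17a1, -3.65 for Lypd3, -1.95 for Krt6a, -8.42 for Krt6b, -3.17 for Krt16, -4.76 for Krt17, -3.18 for Sprr1b, -0.41 for Tgm1, -3.44 for Stfa3, -5.74 for Spink5, -3.08 for Dsg3, -0.0023 for Perp, -7.22 for Gjb2, -2.70 for Gjb6, -1.88 for Casz1 and -0.19 for Sfn, none called. Standard errors were 1.39 to 3.74, but 164406 for Lypd3, whose value is thus not estimated, and exceeded the difference for Krt5, Col17a1, Krt6a, Krt16, Tgm1, Dsg3, Perp and Sfn, whose signs are not determined. Perp was at -0.15 (SE 0.47) without the 3 highest. Of the library sets, only the set with Ngp held both vectors, as the IL27v media pair and 3 EV libraries of other conditions. The vector difference of the fit with sets thus rests on these libraries and on the exposure terms. It does not compare the vectors under a shared exposure within a set. The cause of the negative values was not tested. RLE scaling moved no count of called members by over 1.5 times. Replicate numbers do not pair the libraries (correlation of deviations -0.67 to 0.52 over 55 pairs of groups, over 0.1 in 13). With the replicate block 23 members were called between vectors, among 569 of 24440 genes, and 11 for docetaxel, among 289. A count of 3 stands for 0.0347 to 0.0828 CPM, below which levels are not resolved.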
